A study of Mus musculus with 7 samples.

Results

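Between the DQ52 and VH5-1 gene segments of the mouse Igh locus, 52 minor junction sites were collected that lie outside the strong D segment clusters. They are the positions on chromosome 12 from 114673401 to 114830702 (mm9) where reads in deletional orientation joined the bait, grouped with gaps of at most 300 bp, and kept where the 7 libraries together held under 1000 lines. A line is 1 sequenced read with 1 junction. The 52 sites held 2124 of 264791 lines in the series, and they are 52 of the 331 clusters in this orientation along the Igh locus. The sites were selected on pooled line counts, so their low counts are a description and not a finding. The largest minor site held 372 lines, and the smallest cluster kept out, D_114732517, held 1030 lines.

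Pro-B cells of bone marrow were studied by high-throughput genome-wide translocation sequencing (HTGTS), a method that amplifies and sequences whatever DNA has joined a chosen bait. The bait was the JH4 coding end. Cells were sorted as B220+CD43highIgM- from 129SVE mice aged 4 to 6 weeks, and the libraries were VH81X-CBEscr/scr (n = 4) and WT (n = 3). The series asks how VH segments are used in these genotypes. From its name, VH81X-CBEscr/scr is taken to carry 2 scrambled copies of a CTCF-binding element at VH81X, though no label explains it. Libraries held 31986 to 46915 lines, and a count of 0 in a library allows a share of up to 0.00639% to 0.00938% of its lines. Lines marked as duplicates made up 71.8% to 84.8% of a library. WT replicate 2 had the highest of these shares and was also the least varied library, with 7538 distinct junctions. VH81X-CBEscr/scr replicate 2 came next with 11416, and WT replicate 1 had the most, 18040. Whether each library is another mouse is not stated, and all p-values then reflect library spread alone, which may be technical. Lines are PCR reads with no molecular identifier and may repeat a molecule, so every interval and floor covers counting error only. Of 4 sequencing runs named by the reads, 0 held both genotypes, so run and genotype cannot be told apart.

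In V(D)J recombination the RAG endonuclease cuts beside recombination signal sequences, which consist of a heptamer that begins with CAC, a spacer and a nonamer. A D segment is first joined to a JH segment, and a VH segment is then joined to the DJ product. A join of JH4 to a D segment therefore carries only a few untemplated bases at the junction, whereas a join of JH4 to a VH segment carries the D segment between them. Mouse D arrays also hold D pseudogenes, and signals that resemble a recombination signal by chance are called cryptic. Between DFL16.1 and the first VH segments lies the intergenic control region IGCR1, which holds CTCF-binding elements.

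The following sequences show what the reads joined at the sites that the results turn on. Sites are named S_ and main D clusters D_, each followed by the most frequent junction position. Each sequence is the consensus of the deposited reads of all libraries, given in coding orientation (the minus strand of mm9), and was not checked against a genome. It begins with 40 bases of joined DNA that end at the junction, and goes on with up to 28 bases beyond it where at least 2 reads covered them. Capitals mark the 7 bases from the first CAC within 10 bases after the junction, on the coding strand only.
DFL16.1, chr12:114734516-114734583, for comparison: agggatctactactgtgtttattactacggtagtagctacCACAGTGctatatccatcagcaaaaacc
D_114732517, chr12:114732489-114732556: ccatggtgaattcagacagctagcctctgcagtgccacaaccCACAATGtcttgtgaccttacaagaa
S_114713225, chr12:114713222-114713264: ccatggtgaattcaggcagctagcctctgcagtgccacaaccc
S_114708573, chr12:114708572-114708612: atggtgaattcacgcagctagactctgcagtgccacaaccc
peak_114713460, chr12:114713432-114713499: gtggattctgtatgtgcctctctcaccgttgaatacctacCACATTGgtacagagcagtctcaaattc
S_114689019, chr12:114689017-114689058: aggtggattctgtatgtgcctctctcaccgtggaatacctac
S_114718121, chr12:114718118-114718160: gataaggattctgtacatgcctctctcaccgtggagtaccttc
S_114697209, chr12:114697181-114697248: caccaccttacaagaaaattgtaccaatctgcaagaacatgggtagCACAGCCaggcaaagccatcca
S_114706859, chr12:114706854-114706898: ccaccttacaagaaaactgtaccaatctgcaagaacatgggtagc
S_114720380, chr12:114720352-114720419: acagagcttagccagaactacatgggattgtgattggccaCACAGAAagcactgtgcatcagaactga
S_114733437, chr12:114733436-114733476: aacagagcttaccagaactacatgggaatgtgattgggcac
S_114737720, chr12:114737710-114737759: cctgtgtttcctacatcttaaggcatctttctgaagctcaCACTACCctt
peak_114738199, chr12:114738171-114738238: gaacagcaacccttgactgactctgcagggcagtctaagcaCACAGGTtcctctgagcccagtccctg
In the next pair, capitals mark instead the bases that differ between a site far upstream and the first main D cluster after DQ52.
S_114784064, chr12:114784064-114784103: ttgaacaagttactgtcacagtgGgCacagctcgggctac
D_114687612, chr12:114687612-114687651: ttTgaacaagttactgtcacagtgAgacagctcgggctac

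Most minor lines lay at sites called recurrent, which follows in part from the use of line counts to define them. A site was called recurrent with at least 10 lines pooled and lines in at least 4 of 7 libraries. Between the main D segments, 20 of 37 sites were recurrent and held 1622 of 1712 lines. Between DFL16.1, the last D segment, and VH5-1, 2 of 15 sites were recurrent and held 385 of 412 lines. The other 30 sites held 1 to 19 lines each, 117 in all. The best match of the joined bases was their own site in 99.1% of the 2124 lines (bwa). No mm9 genome was at hand for this match. It is therefore no independent check of how lines were placed among nearly identical copies. The 12 main D clusters of the same window held 152332 lines.

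**Figure D1:**
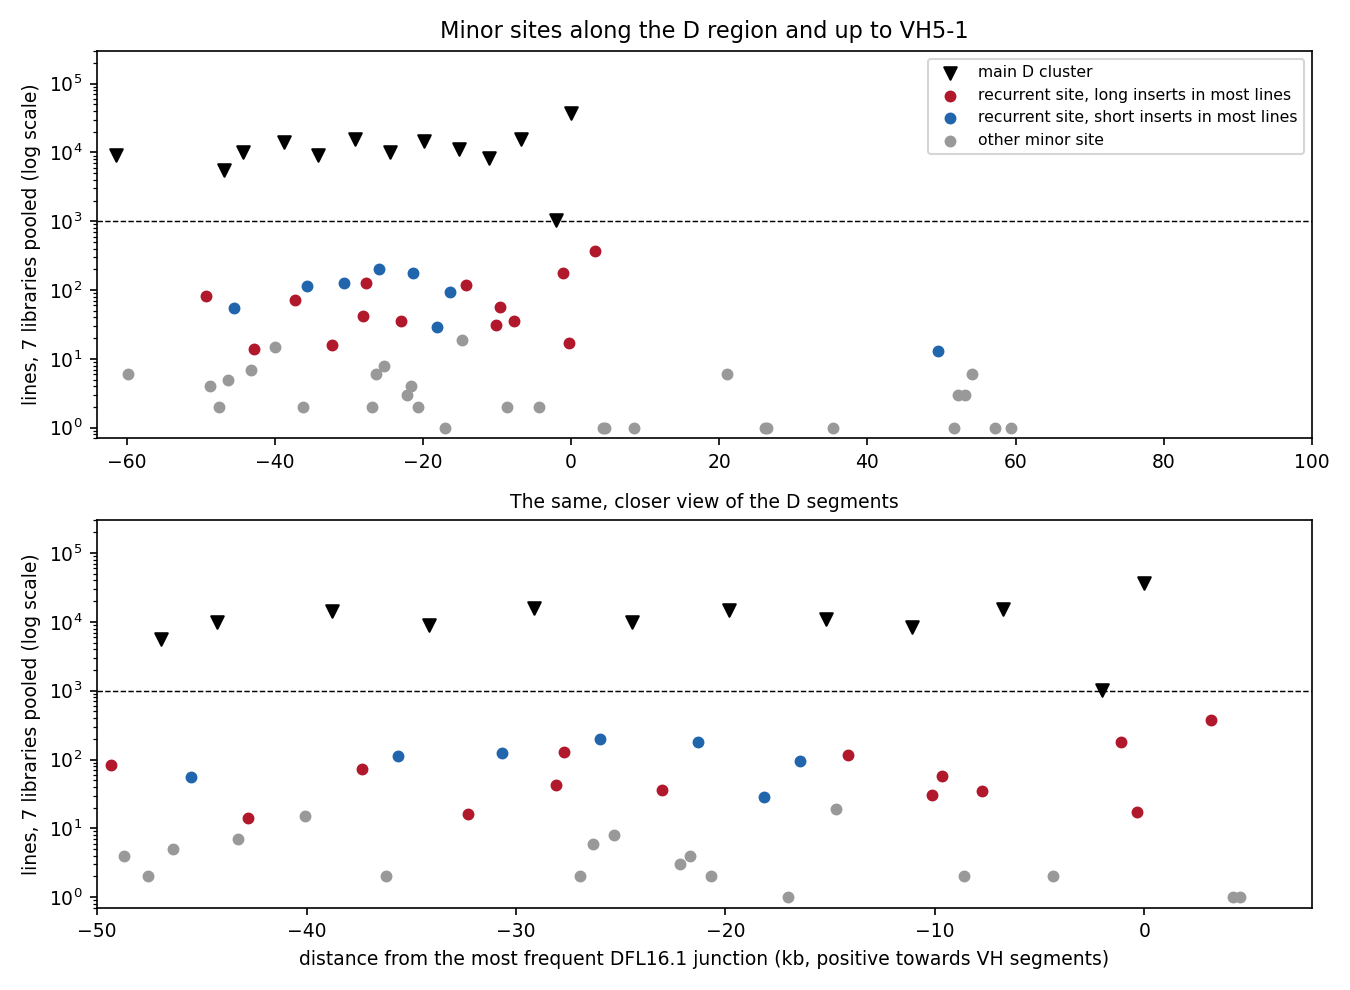
Lines of each minor site and main D cluster, pooled over 7 libraries (log scale), against distance from the most frequent DFL16.1 junction in kb. The dashed line is the 1000-line threshold. The upper panel shows the whole window and the lower one the D segments, where recurrent sites with long inserts (red) and with short inserts (blue) both lie between the main D clusters (triangles). Beyond the site with 372 lines just right of DFL16.1, the recurrent site with 13 lines is the one coloured point.

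The recurrent sites fell into 2 kinds by the bases between bait and prey. Insert length, the number of read bases between the bait and prey alignments, was not used to choose sites. The files hold no insert over 30 bases, so longer ones are missing for every kind of site. An insert of at least 10 bases, called long here, was present in 50.7% of minor lines and in 6.04% of lines at main D clusters. Within libraries the difference was 44.4 percentage points (SD 6.99, n = 7), positive in 7 of 7 libraries (two-sided exact sign-flip p = 0.015625, the smallest for 7 libraries, and 0.03125 after Benjamini-Hochberg adjustment over 8 comparisons). Between main D segments 42.1% of minor lines had a long insert, and between DFL16.1 and VH5-1 86.2% had one. At V segments, which are all clusters from VH5-1 upwards, the share was 87.3%. The minor lines past DFL16.1 differed from V segments by -1.36 points (SD 8.08, exact sign-flip p = 0.703), a spread that leaves differences of several points undetectable. The minor lines between main D segments differed from V segments by -45.2 points, below them in 7 of 7 libraries (exact sign-flip p = 0.015625, adjusted 0.03125).

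The sites themselves differed widely in this share. At 14 recurrent sites, with 1197 lines, 54.8% to 91.9% of lines had a long insert. At the other 8, with 810 lines, 1.99% to 27.6% had one. The 8 short-insert sites had a median insert of 3 bases, as the main D clusters did, and the 14 long-insert sites one of 16 bases, against 17 bases at V segments. The 2 kinds were split at 50% after the values were seen, so no test is given for them. S_114716409, at 27.6%, held a long-insert peak of 14 lines and a short-insert peak of 13 lines, 12 of them from VH81X-CBEscr/scr replicate 1. S_114724399, at 54.8%, was also mixed. It held a peak of 17 lines with 100% long inserts and one of 10 lines with 0%, 9 of them from WT replicate 2. S_114720380, a long-insert site, held a peak of 21 lines with 23.8% long inserts.

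**Figure D2:**
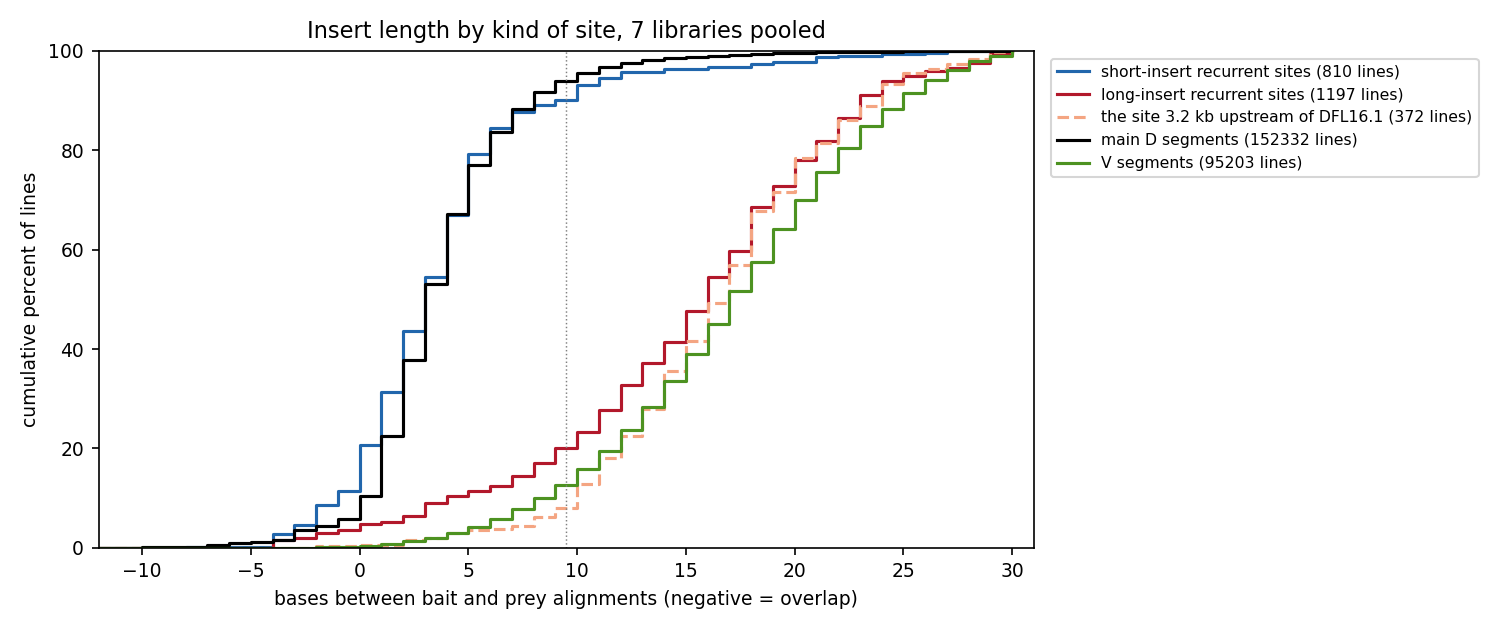
Cumulative percent of lines against the number of bases between bait and prey alignments, pooled over 7 libraries, with overlaps below 0. Short-insert recurrent sites (810 lines) follow the main D clusters (152332 lines), and long-insert sites (1197 lines), S_114737720 among them, follow the V segments (95203 lines). The dotted line marks the 10-base limit.

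The short-insert sites consisted mainly of repeated elements that lie at the spacing of annotated D pseudogenes. S_114698902, S_114703894, S_114708573 and S_114713225, with 113, 125, 201 and 179 lines, carried the element of D_114732517, the cluster just above the line threshold. Over 60 bases the 4 sites were 93.3% to 98.3% identical to D_114732517 and 95% to 100% to each other. Each lay 1500 to 1505 bp downstream of the next main D cluster. In the RefSeq gene table of another assembly (GRCm38.p6), whose coordinates were not used here, the D pseudogenes Ighd5-7 and Ighd5-8 lie at that spacing from their next D segment, to within 3 bp. D_114732517 itself lay 2027 bp downstream of DFL16.1, and the pseudogene Ighd6-1 lies at the same spacing from Ighd1-1 in that table, which is DFL16.1. Reads covered under 10 bases past the junction at the 4 sites, so the bases where a heptamer would lie were not read.

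Each of these 4 sites had a further peak 235 to 241 bp upstream, with another element. Peaks are positions split at gaps over 50 bp with at least 10 lines. The 4 further peaks held 21, 28, 28 and 55 lines, 132 in all, and 0% to 14.3% of their lines had a long insert. Their 40 joined bases were 97.5% to 100% identical to those of S_114689019, a site with 55 lines that lies 1267 bp downstream of its next D segment. The further peaks lay 1264 to 1267 bp downstream of theirs, within 1 bp of the spacing of Ighd5-2, Ighd5-3, Ighd5-4 or Ighd5-6. In the gene table Ighd5-8 and Ighd5-4 stand 237 bp apart, and so do Ighd5-7 and Ighd5-3. The base sequence CACATTG followed the junction directly at the peak printed above. S_114718121, with 95 lines, was 85% identical to S_114689019 and lay 1237 bp downstream of its D segment, 26 bp off the closest annotated spacing.

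Of 20 recurrent sites with a D segment upstream, 5 matched a pseudogene spacing within 10 bp, and these held 673 lines. All 5 were short-insert sites. The match is one of spacing between different assemblies, so the pseudogene names stay those of the gene table and are not given to the sites.

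At their first peaks the 4 minor copies of the D_114732517 element held 485 lines together. In VH81X-CBEscr/scr replicates 1 to 4 the 4 minor copies took 0.180%, 0.209%, 0.160% and 0.165% of all lines, and in WT replicates 1 to 3 they took 0.138%, 0.302% and 0.153%. WT replicate 2 was above every mutant library, and WT replicates 1 and 3 were below every one. D_114732517 took 0.383% ± 0.0441 in VH81X-CBEscr/scr (SD, n = 4) and 0.399% ± 0.0502 in WT (SD, n = 3); its limma-voom log2 fold change was -0.047 (SE 0.21, adjusted p = 0.986). The 6 peaks of the S_114689019 element held 272 lines, at 0.113% ± 0.0278 of all lines in VH81X-CBEscr/scr and 0.0918% ± 0.0115 in WT.

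S_114708573 had the most lines between main D segments, and 1 library gave many of them. It held 28, 26, 29 and 7 lines in VH81X-CBEscr/scr replicates 1 to 4, against 18, 80 and 13 in WT replicates 1 to 3. WT replicate 2 alone gave 39.8% of its lines, and those 80 lines came from 12 distinct junctions. Its share was 0.0639% ± 0.0307 in VH81X-CBEscr/scr and 0.103% ± 0.116 in WT. By limma-voom the log2 fold change was -0.18 (SE 0.64, adjusted p = 0.986). The log2 fold change was 0.64 without WT replicate 2 and 0.32 without mutant replicate 4, so single libraries set its direction.

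S_114713225 and S_114703894 were more even. S_114713225 held 24, 32, 22 and 19 lines in VH81X-CBEscr/scr, against 23, 16 and 43 in WT (log2 fold change 0.041, SE 0.38, limma-voom adjusted p = 0.986). S_114703894 held 17, 16, 8 and 31 lines in VH81X-CBEscr/scr, against 14, 18 and 21 in WT, and S_114698902 held 17, 14, 18 and 16, against 13, 13 and 22. The genotypes overlapped at each of these sites. S_114718121 held 24, 17, 13 and 8 lines in VH81X-CBEscr/scr, against 12, 8 and 13 in WT, with the highest log2 fold change of the 12 minor sites tested (0.55, SE 0.48, limma-voom adjusted p = 0.919).

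The long-insert sites between main D segments also held repeated sequence, at another place in the D units. A family of 7 sites with 351 lines, 6 of them long-insert sites, lay 1438 to 1839 bp upstream of a main D cluster. Its sites with most lines were S_114706859, with 127 lines and 85.0% long inserts, and S_114697209, with 72 lines and 77.8% long inserts. Sites were linked where at least 1 other member differed by at most 20% edits over 60 bases, and the least alike pair was 51.7% identical. S_114716409, a short-insert site, belongs to it by part of its sequence, and S_114691743, S_114702246, S_114711524 and S_114724896 are the others. S_114697209 and S_114706859 were 98.3% identical. Past the junction of S_114697209 the sequence CACAGCC began 6 bases on.

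S_114733437 and S_114720380, further long-insert sites, were 78.3% identical to each other over 60 bases. S_114733437 lay 1107 bp downstream of DFL16.1 and held 22, 46, 20 and 14 lines in VH81X-CBEscr/scr, against 31, 15 and 30 in WT. S_114720380 held 5, 18, 13 and 14 lines in VH81X-CBEscr/scr, against 24, 13 and 30 in WT. Both sites overlapped between genotypes, and limma-voom gave S_114720380 a log2 fold change of -0.75 (SE 0.47, adjusted p = 0.792), or -0.33 without mutant replicate 1. S_114720380 covered 1511 bp with 4 peaks, so it is less a site than a stretch, and its printed sequence stands for a peak of 19 lines. S_114685205, with 83 lines and 65.1% long inserts, lay 2407 bp downstream of D_114687612. Of its 54 long inserts, 18 (33.3%) held a D sequence, and all 18 matched DQ52. These 18 came from 5 distinct junctions, and DQ52 is the sole main D cluster downstream of this site.

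A CAC close to the junction was frequent at the minor sites. Of the 22 recurrent sites, 7 had the 10 bases after their most frequent junction covered by reads, and 5 of these 7 (71.4%) held CAC on the coding strand. Counted by peak, of which there were 35, 19 had their next 10 bases covered by reads, and 17 of these 19 (89.5%) held it. All 13 of 13 main D clusters held it, DQ52 included. Of all 34194 read positions in the window, 17.4% were followed by CAC within 10 bases. Joined positions are not independent of each other where sites share an element, and a match of letters is a description, not a signal sequence. Of the minor sites and peaks printed above, 5 have these 7 bases in capitals, and 0 of the 5 carried CACAGTG, the heptamer of DFL16.1. At the others the reads ended too close to the junction.

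Long inserts at minor sites often held D sequence, mostly of D segments downstream of the site. The longest exact match of at least 8 bases between an insert and the coding ends of the main D clusters was taken. Such a match was present in 718 of 1076 long inserts at minor sites (66.7%), in 76.8% of those at V segments and in 18.5% of those at main D clusters. Sites past DFL16.1 lie upstream of every main D cluster, so their 249 matched inserts could match downstream only. Between main D segments, where both sides were possible, the best match was downstream, between the site and JH4, in 381 of 469 matched inserts. In 87 of these 469 equally good matches lay on both sides, and in 1 (0.213%) the match lay upstream. At main D clusters 126 of 1698 matched inserts (7.42%) had their match upstream. D segments with identical cores cannot be told apart by such matches.

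S_114737720 was the most used minor site and the sole strong one between the DFL16.1 cluster and VH5-1. Under the gap rule the DFL16.1 cluster ran on to 114736840, so any weak site up to there was counted with it. It lies 3176 bp upstream of DFL16.1 (chr12:114737400-114738210 for all its junctions). It held 70, 60, 43 and 52 lines in VH81X-CBEscr/scr replicates 1 to 4, against 74, 24 and 49 in WT replicates 1 to 3. As shares of all lines, WT replicate 2 was lowest at 0.0710%, and WT replicate 1, at 0.182%, lay among the mutant libraries, so the genotypes overlapped. Its share was 0.157% ± 0.0328 of all lines in VH81X-CBEscr/scr and 0.119% ± 0.0570 in WT. By limma-voom its log2 fold change was 0.45 (SE 0.33, adjusted p = 0.846). It was 0.18 without WT replicate 2, 0.79 without WT replicate 1, 0.010 among lines not marked duplicate and 0.064 among distinct junctions. The 372 lines came from 190 distinct junctions. Of its 3 peaks, the first held 273 lines and a peak 479 bp further upstream held 77. The first was followed directly by CACTACC.

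S_114737720 had inserts as long as those of V segments. Long inserts made up 91.9% of its lines, and 77.6% to 100% in single libraries. Of 342 long inserts, 239 held D sequence, and 136 of these had a single best D segment. D_114705399 gave 47, D_114695747 gave 45, D_114719358 gave 20 and DQ52 gave 9. DFL16.1, the main D cluster nearest to the site, gave 0 of 136, which allows a share of up to 2.21%. In inserts of V segments DFL16.1 was the most frequent, at 26.7% to 30.8% of inserts with a single best D segment in the 7 libraries (mean 29.0% ± 1.63, SD, n = 7).

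The absence of DFL16.1 among single best matches was noticed in these values and then tested on them. Inserts with tied best matches were left out of these shares. The difference between S_114737720 and V segments was -29.0 percentage points, lower in 7 of 7 libraries (two-sided exact sign-flip p = 0.015625, adjusted 0.0430 over 11 D segments). D_114727777, the main D cluster that follows DFL16.1 and D_114732517 in distance from the site, gave 1.50% ± 2.57 of inserts at S_114737720 and 12.04% ± 0.853 at V segments, lower in 7 of 7. D_114695747 gave 32.1% ± 7.31 at S_114737720 and 9.35% ± 1.10 at V segments, higher in 7 of 7. D_114714725 gave 0% at S_114737720 and 1.56% ± 0.216 at V segments, which is under the 2.21% that 0 of 136 allows. These 3 had the same exact sign-flip p and adjusted value, and the other 7 D segments had adjusted values of 0.275 or more. Among distinct junctions, 0 of 69 inserts matched DFL16.1, which allows a share of up to 4.35%, and the difference was -29.6 points. At minor sites between main D segments, pooled over libraries, D_114695747 gave 92 of 254 inserts with a single best D segment (36.2%). Its high share was therefore not particular to S_114737720. DFL16.1 gave 0 of 254 there, but it lies upstream of all those sites.

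**Figure D3:**
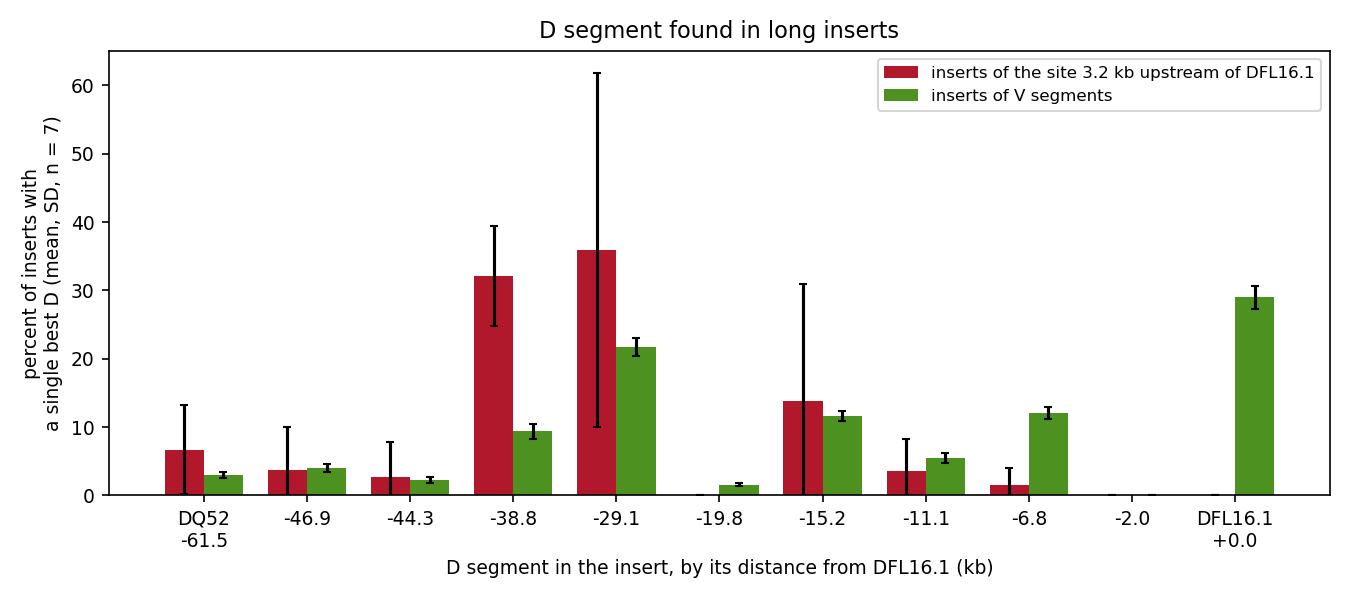
Percent of inserts with a single best D segment that matched each D segment, for S_114737720 (left bars) and V segments (right bars), as mean and SD over 7 libraries. D segments run from DQ52 to DFL16.1 by distance in kb. DFL16.1 has no bar at S_114737720 and the highest bar at V segments.

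Beyond S_114737720 the stretch up to VH5-1 was nearly empty. Over the 92.158 kb that start 4 kb upstream of DFL16.1, 14 sites held 40 lines, 23 in VH81X-CBEscr/scr and 17 in WT, or 0.434 lines per kb. Between main D segments minor sites held 32.1 lines per kb over 53.308 kb. Of the 14 sites, 13 held 1 to 6 lines each and 27 together, and 1, S_114784064, was recurrent.

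S_114784064, 49520 bp upstream of DFL16.1, had the joined bases and insert length of a D segment. Its 60 joined bases were 91.7% identical to D_114687612, and 1 of its 13 lines had a long insert. In the GRCm38.p6 gene table a D segment, Ighd3-1, and a D pseudogene, Ighd5-1, lie between Ighd1-1 and Ighv5-1, and Ighd3-2 is the next after Ighd4-1, as D_114687612 is after DQ52. The distance of S_114784064 from VH5-1 was 875 bp off that of Ighd3-1 from Ighv5-1 and 612 bp off that of Ighd5-1, so it is given neither name. Its 13 lines came from 7 distinct junctions. VH81X-CBEscr/scr replicates 1 to 4 held 0, 0, 2 and 0 lines, and WT replicates 1 to 3 held 4, 3 and 4.

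The genotypes did not overlap at S_114784064, but at this depth a 0 in a mutant library allows up to 0.00785% to 0.00938% of lines, against 0.00853% to 0.00985% measured in WT. Of 155 clusters tested along the locus, 5.16% did not overlap between genotypes. S_114784064 fell below the filter on low counts. Fitted without that filter, limma-voom gave it a log2 fold change of -2.28 (SE 0.73, adjusted p = 0.229). D_114687612, the main D cluster of like sequence, took 1.98%, 1.91%, 1.52% and 1.55% of lines in VH81X-CBEscr/scr, against 2.12%, 2.66% and 2.81% in WT (log2 fold change -0.54, SE 0.15, limma-voom adjusted p = 0.076).

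As a whole the minor sites took a similar share of lines in both genotypes, within the spread of libraries. They took 0.895%, 1.05%, 0.682% and 0.749% of lines in VH81X-CBEscr/scr replicates 1 to 4, against 0.773%, 0.8288% and 0.697% in WT replicates 1 to 3. Mutant replicates 1 and 2 lay above every WT library and replicate 3 below every one. The log2 difference was 0.12, with means of 0.844% ± 0.164 in VH81X-CBEscr/scr and 0.766% ± 0.0662 in WT (two-sided exact permutation p = 0.571, adjusted 0.8 over 3 shares). Between main D segments the means were 0.670% ± 0.130 in VH81X-CBEscr/scr and 0.633% ± 0.0976 in WT, a log2 difference of 0.073 (exact permutation p = 0.8).

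Between DFL16.1 and VH5-1 the minor sites took 0.194%, 0.213%, 0.140% and 0.149% of lines in VH81X-CBEscr/scr, against 0.197%, 0.0829% and 0.119% in WT. The log2 difference was 0.45 (exact permutation p = 0.286). The 95% Wilson interval of WT replicate 2, 0.0574% to 0.1198%, lay below those of mutant replicate 1, 0.154% to 0.243%, and mutant replicate 2, 0.168% to 0.269%. That of WT replicate 1, 0.158% to 0.245%, overlapped all 4 mutant intervals. These intervals cover counting error of lines only, and WT replicate 2 had the highest share of duplicate lines. The 14 long-insert sites took 0.470% ± 0.141 in VH81X-CBEscr/scr and 0.437% ± 0.0586 in WT (exact permutation p = 0.914), and the 8 short-insert sites took 0.313% ± 0.0434 in VH81X-CBEscr/scr and 0.306% ± 0.0974 in WT (exact permutation p = 0.857). The share of minor lines with a long insert was 52.1% ± 4.73 in VH81X-CBEscr/scr and 48.2% ± 10.4 in WT (exact permutation p = 0.514).

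**Figure D4:**
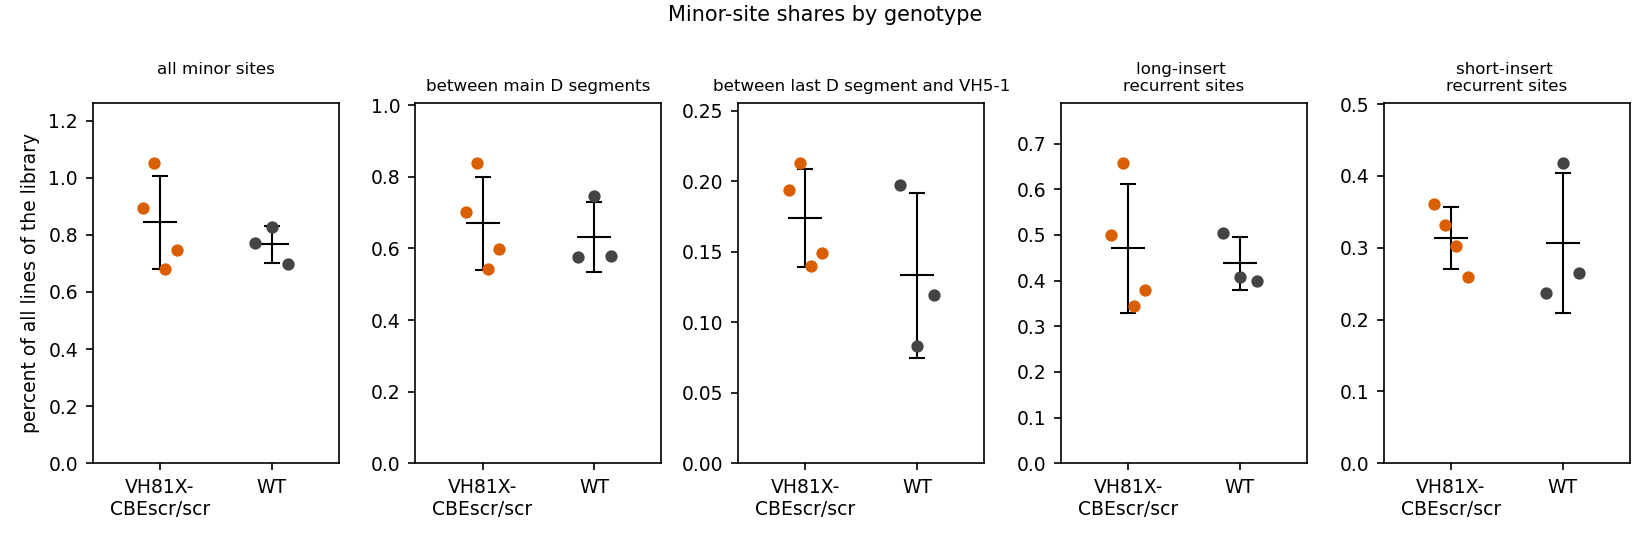
Percent of all lines of a library at minor sites, VH81X-CBEscr/scr (n = 4) left of WT (n = 3), with mean and SD, for all minor sites, both zones and both kinds of recurrent site. Each panel has its own axis from 0, and the genotypes overlap in all 5.

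Site by site, 0 of 12 minor sites that passed the filter of 10 lines on average in either genotype were called by limma-voom at an adjusted p under 0.05. Of all 155 clusters tested along the locus, 1.29% were called. At an unadjusted p under 0.05 the count was also 0 of 12, where 7.1% of all clusters lay under it, and 0 of 12 had genotypes that did not overlap. Of the 12 log2 fold changes, 8 were positive and 4 negative, from -0.98 at S_114706440 to 0.55 at S_114718121, with a median of 0.067 against 0.026 over all clusters. Standard errors ran from 0.33 to 0.88. S_114706440 held 3, 4, 2 and 3 lines in VH81X-CBEscr/scr, against 5, 21 and 4 in WT, so WT replicate 2 gave 50% of its 42 lines. The other 40 minor sites did not reach that average in either genotype and were not tested. In simulated counts of the 155 clusters, with a dispersion of 0.1 assumed, limma-voom recovered 40.4% of 2-fold changes. Most of these clusters are no minor sites, and recovery at the minor sites alone was not computed.

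**Figure D5:**
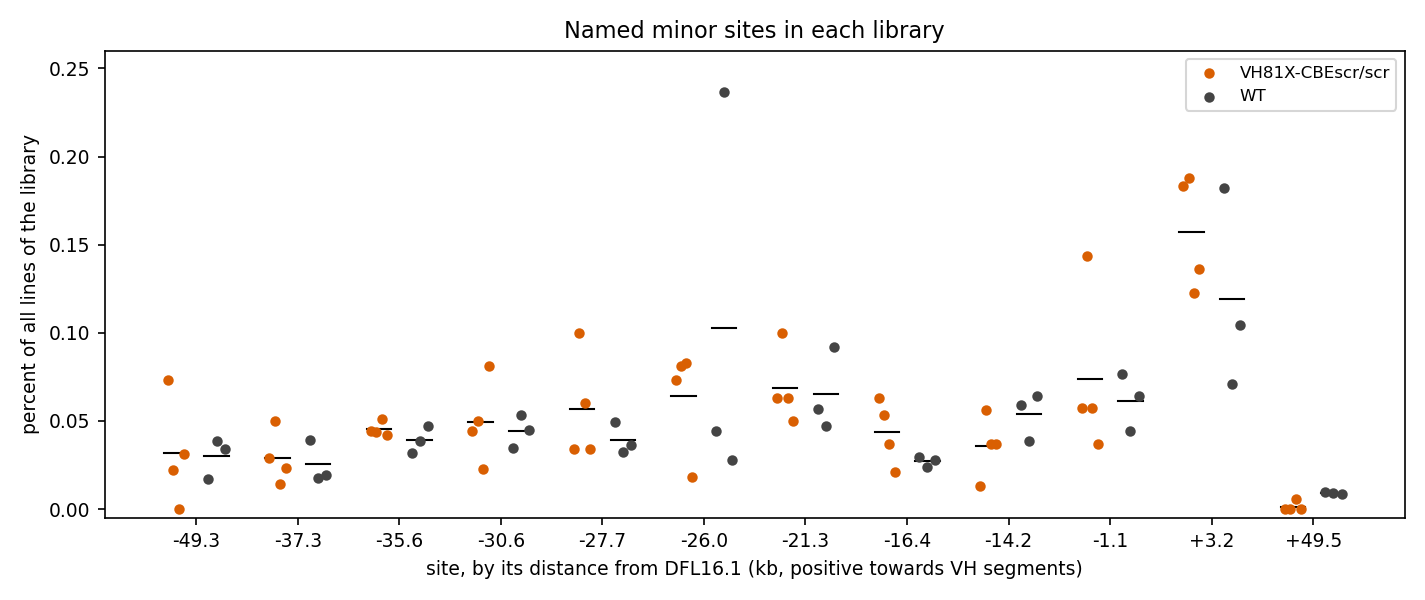
Percent of all lines of a library at each of the 12 named recurrent sites, ordered by distance from DFL16.1 in kb, VH81X-CBEscr/scr libraries left of WT libraries, with the mean as a bar. The site with 372 lines is highest in most libraries, WT replicate 2 stands out at S_114708573, and the last site, S_114784064, is near 0 in both genotypes.

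Lines in inverted orientation were few at both kinds of cluster. Within 50 bp of the recurrent sites 5 such lines lay at 3 sites, beside 2007 deletional lines (0.249 per 100). Within 50 bp of the main D clusters, DQ52 included, 263 lay beside 161523 deletional lines (0.163 per 100). The difference was not tested.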

How the data were processed

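Per the submitters' processing notes, the authors aligned reads with Bowtie2 to mm9; versions and filters are not given in the sources used here. Per the file headers, the deposited files list 1 junction per line with its position, strand, read sequence and flags, and no counts, so counts were made here by counting lines. All lines were used, duplicates included, with all lines of a library as its total. Sites, coordinates and sequences come from these files (Python 3.11.15, pandas 2.3.3, SciPy 1.17.1). Joined bases were compared with edlib 1.3.9.post1, and each line was matched to its site with bwa 0.7.19.

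Single values were compared by two-sided exact permutation, which doubles the smaller tail, and measures within libraries by exact sign-flip. With 4 against 3 libraries such a permutation p cannot fall under 0.05, however far the genotypes differ. Sites were tested by limma-voom (limma 3.58.1, R 4.3.3) over 155 clusters with at least 10 lines on average in either genotype, with Benjamini-Hochberg adjustment over all of them and a threshold of 0.05. It was tested on simulated data, where 3.00% of calls lay on unchanged clusters. The simulated counts assumed a dispersion of 0.1 and did not model duplicate lines, so this rate may not hold for these data.

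The sites, classes and lists were chosen with earlier results of these data known. Named are the 10 recurrent sites with most lines in each zone (2 past DFL16.1), and others were named after their values were seen. Replicate numbers did not pair samples (correlations of deviations -0.35, 0.024 and -0.057). Alternatives tried were lines not marked duplicate, distinct junctions, other gaps and limits, no filter, and each library left out.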

Additional observations from a re-analysis of the deposited data

Results flagged for a closer look

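Of 18 groups of 4 mutant values checked for a value far from the rest, 2 had one, where chance gives about 1 in 20. At S_114708573, VH81X-CBEscr/scr replicate 4 had 0.0183% of its lines (7 lines), against 0.0732% to 0.0827% in the other 3 mutant libraries. At S_114784064, VH81X-CBEscr/scr replicate 3 had 0.00570% (2 lines of 1 distinct junction), where the other 3 mutant libraries had 0 lines. With 3 values at 0 any other value stands apart, whatever its size, so nothing is read from this second one.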

How the results depend on the processing

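Across 17 alternatives, 0 minor sites were called by limma-voom in each, and the lowest adjusted p of a minor site was 0.229, at S_114784064 with no filter on low counts. The small difference in share between genotypes changed direction with the lines counted, and the cause was not tested. For all minor sites the log2 difference of 0.12 was -0.063 among lines not marked duplicate and -0.0072 among distinct junctions, and ran from 0.011 to 0.22 with 1 library left out. Between main D segments the difference of 0.073 was -0.11 among lines not marked duplicate and -0.050 among distinct junctions, and ran from -0.042 (without mutant replicate 2) to 0.20 with 1 library left out. Past DFL16.1 the difference of 0.45 was 0.12 among lines not marked duplicate, 0.18 among distinct junctions and 0.25 with gaps of at most 1000 bp, and ran from 0.16 (without WT replicate 2) to 0.78 (without WT replicate 1) with 1 library left out. With the replicate block over the 3 shared numbers the 3 log2 differences were 0.17, 0.12 and 0.52, the numbers did not pair the samples, and 0 sites were called with it. The excess of long inserts over main D segments ran from 32.6 to 46.5 points over alternatives, and was 44.4 with the replicate block, where 3 pairs allow no p under 0.25 (exact sign-flip p = 0.25). Depth limits every site, since most hold under 10 lines per library.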
